A study of Mus musculus with 9 samples.

Results

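The genes described here are Oaf, Crip1, Amz1, F2rl3, Ntn1, Nbea and Lipo1, 7 of the 25494 genes in the deposited RNA-Seq table of mouse macrophage lines. They were taken by symbol. They were chosen by their levels and fold differences between the lines in these same libraries, so the differences given below are descriptions, with no test. All 7 were listed in each of the 3 deposited comparisons between lines. The label under which they were grouped calls them restricted to single lines, and this was checked against their levels.

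The 9 libraries came from immortalized bone marrow-derived macrophages (BMDMs) of TTP-deficient mice. The cells carried the hcmyc and hRasG12V oncogenes, had been sorted as CD11b and F4/80 positive, and were then transduced with a tet-inducible vector that expresses GFP alone or GFP fused to TTP or to TTP-AA, with 3 libraries per line (named GFP, TTP and TTP-AA). Every culture received doxycycline at 1 µg/ml for 6 h in all and LPS at 1 µg/ml for 1 h, the GFP control line included. No unstimulated cells and no cells with endogenous TTP were compared. TTP-AA carries the substitutions S52A and S178A. The transgenes held the TTP coding sequence without its 3' untranslated region (3'UTR). Each group is 1 transduced line, and whether a line was a clone is not given in the sources used here, so the transgene and other properties of the line cannot be told apart.

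TTP, encoded by Zfp36, is a zinc finger protein that binds AU-rich elements in mRNA 3'UTRs, with UAUUUAU as its preferred core, and recruits the machinery that removes the poly(A) tail, so that bound mRNAs decay. In LPS-treated macrophages it limits cytokine production. The kinase MK2 phosphorylates serine residues of TTP and thereby restrains it, and the mutant TTP-AA lacks those sites. Netrin-1, neurobeachin and the thrombin receptor PAR4 are better known from neurons and platelets than from macrophages.

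The deposited values sum to between 21482954 and 102613526 per library. They are means fitted by the authors' model and not measured counts, since the centred log2 table has a rank of 4 rather than the 8 of unconstrained libraries and holds no 0. Within a group the libraries therefore differ only by a library factor and by a term shared by all libraries of the same replicate number. Values below were divided by a library factor between 0.612 and 2.83 and are called scaled counts. The SD over 3 libraries reflects the replicate-number term alone, which gives same-numbered libraries of all lines the same relative deviation, and it cannot serve as the error of a comparison. The ratio between lines is accordingly the same for each replicate number. Whether the values of lines overlap, which is stated for each gene, depends on that shared term and does not show whether the lines differ. Counting error is given as a 95% Poisson interval of the pooled level, the fitted counts of the 3 libraries together over their summed library factors. It takes fitted counts as if they were reads and covers counting error only. Pooling gives a library with a large factor more weight, above all the third TTP-AA library at 2.83. Pooled levels of different lines therefore also differ through the replicate-number term. Whether their intervals overlap is a description and not a test of a difference between lines. Each line has 3 biological replicates per the labels, and no p-value is given for any difference.

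The Zfp36 row did not separate the GFP line from the TTP line. Its mean was 1352 ± 432 scaled counts in GFP (SD, n = 3), 1382 ± 440 in TTP and 2192 ± 700 in TTP-AA (SD, n = 3), and the source of the reads in the GFP line was not tested. The macrophage markers were present in every line. All 9 of the 10 macrophage markers found in the table (Emr1, Itgam, Csf1r, Cd68, Lyz2, Fcgr1, Mertk, Spi1 and Cd14) were above 10 scaled counts in each line. Their summed level ran from 485695 to 916269 scaled counts per library, most of it Lyz2. Levels were not equal between lines, with 16722, 9882 and 26855 scaled counts of Emr1, which encodes F4/80, and 662, 285 and 506 of Fcgr1 in GFP, TTP and TTP-AA. The part of these differences in the levels of the 7 genes was not tested. Markers found in the table were 2 of 5 for T cells, 3 of 5 for B cells and 6 of 7 for fibroblasts. For epithelial cells, mast cells and neurons they were 4 of 5, 1 of 4 and 3 of 4. None of the markers found for these cell types reached 10 scaled counts.

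In the fitted values, each of the 7 genes exceeded a floor of 10 scaled counts in all 3 lines. None was thus confined to 1 line at that floor. Closest to it was Lipo1 in the GFP line, at a pooled level of 11.0 (7.54 to 15.6), an interval that spans the floor. The fitted ratio of the highest to the next line ran from 1.77 for Amz1 to 7.56 for Oaf. If the highest line alone made up the gap to the authors' mean described further on, it would run from 1.97 for Amz1 to 14.4 for Crip1. Oaf, Crip1 and Lipo1 were highest in the TTP-AA line, F2rl3, Ntn1 and Amz1 in the TTP line, and Nbea in the GFP line. Amz1 was above the GFP line with both TTP forms, and Ntn1 had a different level in each line. With a floor of 20 scaled counts, 1 gene, Lipo1, was past it in a single line. With a floor of 50, 4 genes were past it in a single line, namely Crip1, F2rl3, Nbea and Lipo1.

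**Figure D1:**
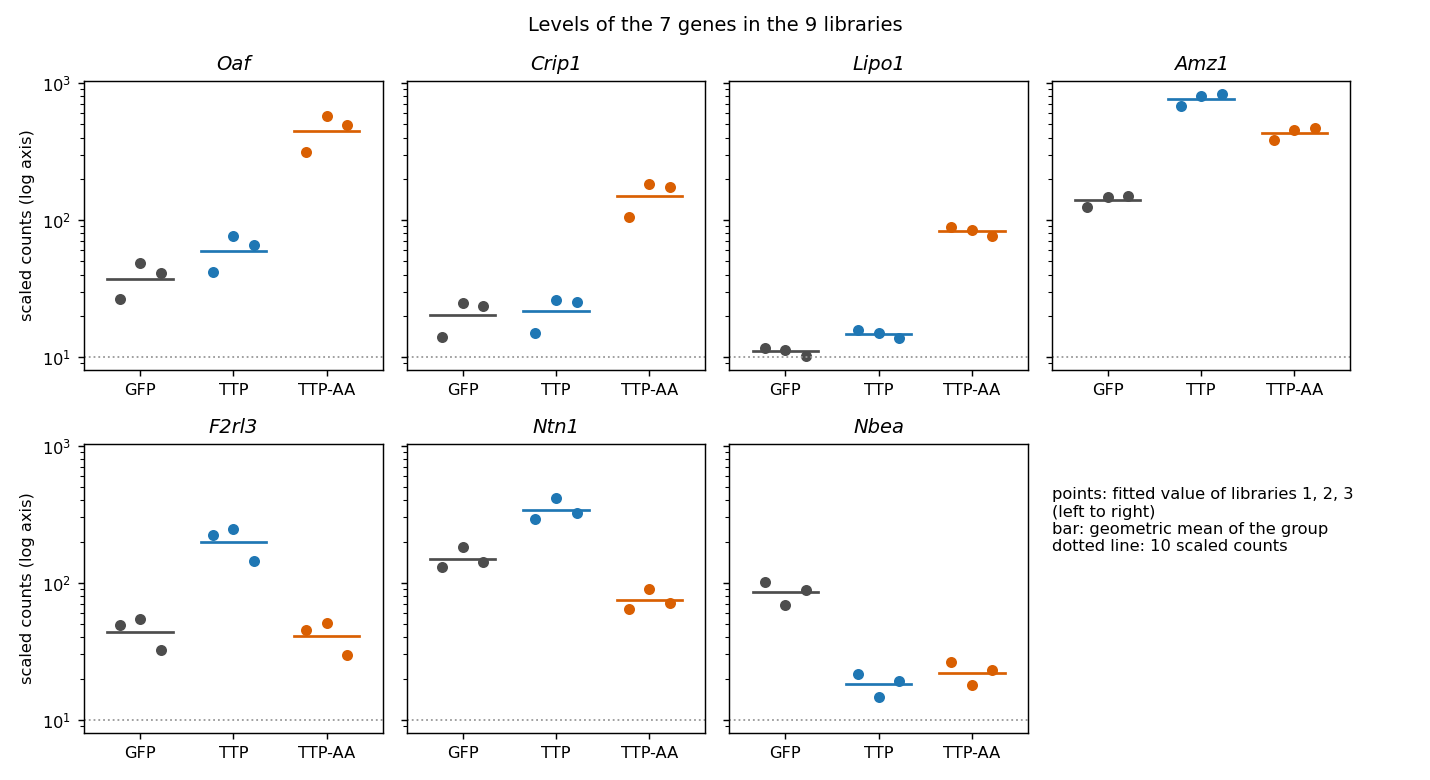
Scaled counts on a log axis for the 7 genes in the GFP, TTP and TTP-AA lines. Points are the fitted values of libraries 1, 2 and 3, bars the geometric mean of the group, and the dotted line marks 10 scaled counts, above which every point lies, the lowest being Lipo1 in the third GFP library at 10.2.

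Ntn1 encodes netrin-1, a secreted laminin-related guidance cue, and lies on the minus strand of chr11:68209364-68400823 (GRCm38). Its scaled counts were 130, 184 and 143 in GFP libraries 1, 2 and 3, 294, 414 and 325 in the TTP libraries, and 64.1, 90.5 and 70.7 in the TTP-AA libraries. The lines did not overlap, TTP being the highest and TTP-AA the lowest. The means were 152 ± 28.2 in GFP, 344 ± 62.2 in TTP and 75.1 ± 13.8 in TTP-AA (SD, n = 3). Of all 7 genes Ntn1 alone was at least 2-fold above GFP in one TTP form, by 1.18 on the log2 scale with TTP, and at least 2-fold below it in the other, at -1.02 with TTP-AA. The latter was short of 2-fold with a pseudocount of 10, at -0.93, and without scaling, at -0.66. The gap between the TTP-AA and TTP lines was -2.20 on the log2 scale, the fourth lowest of the 13028 genes with a mean of at least 10 scaled counts.

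Oaf, the mouse homologue of the Drosophila gene out at first, encodes a secreted protein whose function is little described. It lies on the minus strand of chr9:43221235-43239911. Its scaled counts were 26.3, 48.2 and 41.0 in the GFP libraries, 41.9, 76.2 and 65.4 in the TTP libraries and 316, 578 and 493 in the TTP-AA libraries. Every TTP-AA value exceeded every other value, while the GFP and TTP values overlapped through the shared replicate-number term. The intervals of the pooled levels of GFP, 37.7 (30.9 to 45.5), and TTP, 64.1 (54.8 to 74.4), did not overlap. The means were 38.5 ± 11.2, 61.1 ± 17.5 and 462 ± 133 scaled counts in GFP, TTP and TTP-AA (SD, n = 3). Relative to GFP, the level was 0.67 higher on the log2 scale in TTP and 3.59 higher in TTP-AA, and only Lox had a larger TTP-AA to GFP fold.

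F2rl3 encodes PAR4, a G protein-coupled receptor that thrombin activates by cleaving its extracellular end, best known on platelets. The gene lies on the plus strand of chr8:72761880-72763874. Its scaled counts were 49.0, 54.6 and 32.1 in the GFP libraries, 222, 245 and 145 in the TTP libraries and 45.6, 50.6 and 29.8 in the TTP-AA libraries. Each TTP value was above all others, and the GFP and TTP-AA values overlapped. The means were 45.2 ± 11.7, 204 ± 52.2 and 42.0 ± 10.8 scaled counts in GFP, TTP and TTP-AA (SD, n = 3). TTP was 2.17 above GFP on the log2 scale and TTP-AA differed from GFP by -0.11. The intervals of the pooled levels of GFP, 44.3 (36.9 to 52.7), and TTP-AA, 36.3 (31.0 to 42.4), overlapped. The TTP-AA to TTP difference of -2.28 was the second lowest of the 13028 genes.

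Among megakaryocyte and platelet markers, 3 of 4 were in the table. Pf4 had 861 scaled counts in GFP, 462 in TTP and 829 in TTP-AA, Itga2b had 9.23, 10.3 and 10.1, and Gp9 had 5.38, 4.69 and 4.69. The summed level of the list ran from 860 to 901 scaled counts over the GFP libraries, from 468 to 492 over the TTP libraries and from 827 to 869 over the TTP-AA libraries. Nearly all of this sum was Pf4, Itga2b had its highest level in the TTP line, and the part of such cells in the level of F2rl3 was not tested.

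Amz1 encodes archaemetzincin-1, a zinc metallopeptidase, on the plus strand of chr5:140724127-140761439. Its scaled counts were 124, 147 and 151 in the GFP libraries, 685, 806 and 830 in the TTP libraries and 386, 456 and 467 in the TTP-AA libraries. No pair of lines overlapped. The means were 141 ± 14.3, 774 ± 78.0 and 436 ± 44.0 scaled counts in GFP, TTP and TTP-AA (SD, n = 3). Amz1 was 2.46 higher on the log2 scale than GFP in TTP, the third largest of the 13028 genes, and 1.63 higher in TTP-AA. The TTP-AA line was below the TTP line by 0.83 on this scale, short of 2-fold. Amz1 shares exonic sequence with Gna12 on the opposite strand, whose level was 4655, 4234 and 5525 scaled counts in GFP, TTP and TTP-AA. Use of strand in counting is not given in the sources used here, so reads of the shared stretch may not be assigned with certainty.

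The row named Lipo1 in the files carries the identifier ENSMUSG00000024766, which GENCODE M21 and RefSeq now name Lipo3. It encodes a member of the acid lipase family and lies on the minus strand of chr19:33555160-33761951 in a cluster of related genes. The gene that carries the name Lipo1 today, ENSMUSG00000079342, stood in the files as Gm5097, at the lowest value of every library. Scaled counts of the row named Lipo1 were 11.7, 11.3 and 10.2 in the GFP libraries, 15.7, 15.1 and 13.7 in the TTP libraries and 88.5, 85.1 and 76.9 in the TTP-AA libraries. The TTP-AA values stood far above the others. The means were 11.1 ± 0.79, 14.8 ± 1.04 and 83.5 ± 5.94 scaled counts in GFP, TTP and TTP-AA (SD, n = 3), and TTP-AA was 2.92 above GFP and 2.49 above TTP on the log2 scale. If the TTP-AA line alone made up the shortfall from the authors' mean, these differences would be 3.62 and 3.20. The intervals of the pooled levels of GFP, 11.0 (7.54 to 15.6), and TTP, 14.7 (10.5 to 20.1), overlapped. Reads shared between near-identical lipase copies could be split, so this row is uncertain as to the copy.

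Crip1 encodes cysteine-rich intestinal protein 1, a small LIM domain protein, on the plus strand of chr12:113146316-113153879. Its scaled counts were 14.1, 24.8 and 23.5 in the GFP libraries, 15.1, 26.3 and 25.2 in the TTP libraries and 105, 184 and 175 in the TTP-AA libraries. The GFP and TTP values overlapped almost fully and lay below all TTP-AA values. The means were 20.8 ± 5.82, 22.2 ± 6.17 and 155 ± 43.1 scaled counts in GFP, TTP and TTP-AA (SD, n = 3). TTP differed from GFP by 0.09 on the log2 scale and TTP-AA by 2.90. The fitted values of Crip1 fall short of the authors' mean by more than those of any other gene, and the TTP-AA to GFP difference would be 3.94 if the TTP-AA line alone made up that gap. The intervals of the pooled levels of GFP, 20.4 (15.6 to 26.4), and TTP, 23.3 (17.8 to 29.8), overlapped.

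Nbea encodes neurobeachin, a large BEACH domain protein that anchors protein kinase A and serves membrane trafficking in neurons. The gene lies on the minus strand of chr3:55625195-56183701. Its scaled counts were 101, 69.0 and 88.5 in the GFP libraries, 21.7, 14.7 and 19.0 in the TTP libraries and 26.2, 17.8 and 22.9 in the TTP-AA libraries. The GFP values were the highest, and the values of both TTP forms overlapped. The means were 86.3 ± 16.2, 18.5 ± 3.54 and 22.3 ± 4.23 scaled counts in GFP, TTP and TTP-AA (SD, n = 3). Nbea was -2.22 from GFP on the log2 scale in TTP, the tenth lowest of the 13028 genes, and -1.95 in TTP-AA, the third lowest. The intervals of the pooled levels of TTP, 18.0 (13.3 to 23.9), and TTP-AA, 22.8 (18.6 to 27.7), overlapped. Both comparisons use the same GFP libraries, so their like sizes are not independent. In bulk RNA, fewer cells that express such a gene and less RNA per cell cannot be told apart.

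Over all 13028 genes with a mean of at least 10 scaled counts, 178 genes (1.37%) differed at least 2-fold between TTP and GFP, 192 (1.47%) between TTP-AA and GFP and 427 (3.28%) between TTP-AA and TTP. Of the 7 genes, 4 passed 2-fold between TTP and GFP, 6 between TTP-AA and GFP and 5 between TTP-AA and TTP. The genes were chosen by these same differences, so nothing is read from the higher share. The median log2 difference of the 7 genes was 0.67, 1.63 and 0.27 in these comparisons, beside medians of 0.00 over all genes in each.

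**Figure D2:**
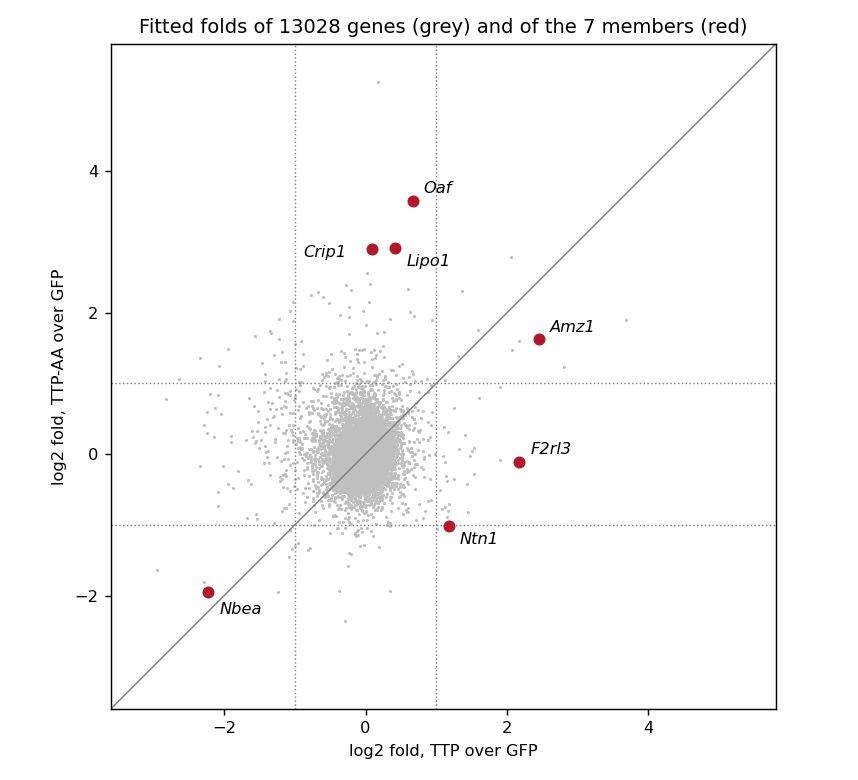
Fitted log2 folds over GFP of 13028 genes with TTP on the horizontal and TTP-AA on the vertical axis, the 7 genes in red, dotted lines at 2-fold and a diagonal for equal folds. Oaf, Crip1 and Lipo1 lie along the vertical axis, F2rl3 lies along the horizontal one, Amz1 and Nbea lie in the corners where both forms went the same way, and Ntn1 lies in the corner of opposite signs. Both axes use the GFP libraries.

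Between genes, levels were compared per kilobase of exon. In the GFP line the 7 genes had between 2.21 scaled counts per kb for Lipo1 and 24.0 for Ntn1, at the 1.19 to 16.6 percentiles of 12959 genes with an annotated length. The highest level per kb was that of Oaf in the TTP-AA line, 171 scaled counts per kb at the 45.0 percentile. Amz1 reached 115 per kb in the TTP line at the 37.7 percentile and F2rl3 99.8 per kb at the 35.1 percentile. Levels were fitted ones, and the exons of all annotated transcripts were merged, which can exceed the length of 1 mRNA. On that basis each of the 7 genes was below the median gene per length, even in its highest line. If the TTP-AA line alone made up the gap to the authors' mean described further on, Oaf would be at 622 scaled counts, not 448. Its percentile in that case was not computed. Nbea, whose annotated exons span 31.4 kb together, was among the lowest of these genes in the TTP line, with 0.582 scaled counts per kb.

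The replicate number moved some of these genes more than most. Averaged over lines, same-numbered libraries differed by up to 1.83-fold for Oaf, 1.75-fold for Crip1 and 1.70-fold for F2rl3, at the 93.6, 92.1 and 90.8 percentiles of all genes, whose median was 1.25-fold. Lipo1 and Amz1 moved least, by 1.15-fold and 1.21-fold. Oaf, Crip1 and Ntn1 were highest in libraries numbered 2 and lowest in those numbered 1, whereas Nbea showed the opposite order. These folds are smaller than the 12.0-fold and 7.45-fold TTP-AA to GFP differences of Oaf and Crip1.

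The authors' mean over the 9 libraries, deposited beside the comparisons, gives a second measure of these genes. It was scaled to equal the mean of the fitted values at the median gene, and genes then deviated from it by a median of 0.127% in either direction. For Crip1 the deposited mean so scaled was 120.5 and the fitted mean 65.9, short by 45.3%, the largest shortfall of the 13028 genes. Lipo1 followed among the 7 genes with 54.1 against 36.5, short by 32.6%. The shortfall was 24.1% for Oaf, 23.4% for F2rl3, 19.8% for Nbea, 6.08% for Amz1 and 5.60% for Ntn1. Only 276 genes, 2.12% of all, were short by 10% or more, and 154 (30.0%) of the 513 genes past 2-fold in any comparison were. The fitted levels of Crip1, Lipo1, Oaf, F2rl3 and Nbea thus fall below the average the authors deposited. Whether the authors' fit drew differences towards 0 is not given in the sources used here and was not tested, so the folds, the levels of the lower lines and the count of lines past the floor hold for the fitted values only.

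If the highest line alone made up the gap, Crip1 would have a mean of 319 scaled counts in the TTP-AA line in place of 155, and its ratio to the next line would be 14.4 in place of 6.98. By the same arithmetic the ratio of highest to next line would be 10.5 for Oaf, 9.20 for Lipo1, 6.48 for F2rl3, 5.27 for Nbea, 2.49 for Ntn1 and 1.97 for Amz1. Which line or library held the difference cannot be read from a mean over all libraries.

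**Figure D3:**
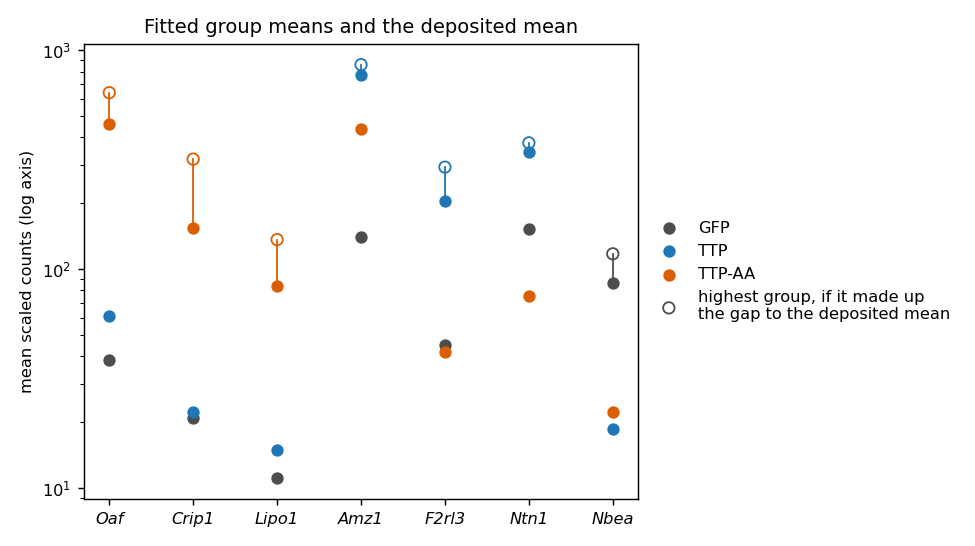
Mean scaled counts on a log axis for the 7 genes. Filled points are the fitted means of the GFP, TTP and TTP-AA lines, and open circles the level the highest line would need for the mean over 9 libraries to equal the deposited mean. The gap is widest for Crip1, from 155 to 319, and narrow for Ntn1 and Amz1.

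Promoter sequences are shown for Oaf, Crip1 and Lipo1 because they had the same order of lines, with the highest level in TTP-AA, and their profiles over the 3 lines were the closest among the 7 genes, at Euclidean distances of 0.26 to 0.52 on the log2 scale. Each runs from 250 bases before to 50 after the annotated start and comes from RefSeq (GRCm38.p6). Capitals mark matches on either strand to the motifs searched. Oaf spans chr9:43239767-43240066 on the minus strand, Crip1 chr12:113151762-113152061 on the plus strand and Lipo1, entered as Lipo3, chr19:33590262-33590561 on the minus strand.
Oaf: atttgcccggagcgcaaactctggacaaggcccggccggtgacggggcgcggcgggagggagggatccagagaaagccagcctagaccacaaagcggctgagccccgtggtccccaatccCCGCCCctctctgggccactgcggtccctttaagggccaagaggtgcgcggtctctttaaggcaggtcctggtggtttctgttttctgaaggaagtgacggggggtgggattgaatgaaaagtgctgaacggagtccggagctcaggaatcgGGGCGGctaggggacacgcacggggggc
Crip1: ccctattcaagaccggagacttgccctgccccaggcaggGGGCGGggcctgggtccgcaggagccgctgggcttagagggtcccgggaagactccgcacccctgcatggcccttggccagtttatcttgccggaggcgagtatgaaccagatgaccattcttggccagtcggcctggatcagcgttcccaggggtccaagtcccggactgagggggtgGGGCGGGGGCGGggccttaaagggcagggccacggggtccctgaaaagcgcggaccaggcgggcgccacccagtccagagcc
Lipo1: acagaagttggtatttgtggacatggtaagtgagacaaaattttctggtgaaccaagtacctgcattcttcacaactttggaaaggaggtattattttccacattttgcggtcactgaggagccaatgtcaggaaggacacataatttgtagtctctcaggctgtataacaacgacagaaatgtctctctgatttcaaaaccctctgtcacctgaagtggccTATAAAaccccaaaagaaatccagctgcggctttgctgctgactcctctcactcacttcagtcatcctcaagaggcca

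The motifs searched were AP-1 (TGANTCA), CRE (TGACGTCA), the E-box CACGTG, PU.1 (GAGGAAGT), SP1 (GGGCGG), the TATA box (TATAAA) and NF-kB by its consensus. Oaf held 2 SP1 matches and Crip1 held 3, in a motif present in 35.7% of 32851 promoters. Lipo1 held a TATA box 28 bases before its start, as did 13.6% of promoters anywhere in the window, and no SP1 match. No searched motif was common to the promoters of all 3 genes. GC content was 64.0% for Oaf, 68.3% for Crip1 and 43.7% for Lipo1, beside a median of 52.7% over all promoters. Of the other members, Nbea held 2 SP1 matches and Amz1 held 1 NF-kB match, a motif found in 8.46% of promoters, while F2rl3 held none. AP-1, CRE, E-box and PU.1, present in 7.81%, 1.79%, 7.15% and 3.20% of promoters, matched in none of the 6 promoters read. Ntn1 had no entry in the promoter table.

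In the 3'UTR of the transcript with the longest coding sequence, Oaf held 1 copy of TATTTAT, the DNA form of the TTP core, and Nbea held 2. The heptamer is shown in capitals within its surroundings, on the minus strand of chr9:43221932-43221960 for Oaf and of chr3:55625535-55625563 and chr3:55625451-55625479 for Nbea.
Oaf: ttaatgcaaaaTATTTATcatttgtacca
Nbea first site: aagcatatcatTATTTATtgctgtgatta
Nbea second site: attgttgtttgTATTTATgaaattctgaa

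Crip1, Amz1, F2rl3, Ntn1 and Lipo1 held no TATTTAT. Thus 2 of 7 genes held it, beside 27.5% of the 11315 genes with a 3'UTR. Nbea, with its 3'UTR of 1709 bases and both copies, was lower in both TTP lines than in GFP, and Oaf, with 1 copy in 1339 bases, was not. These libraries measure neither binding nor decay, and the part of the heptamer in these levels was not tested. Among genes with a 3'UTR of like length, 35.6% held the heptamer for Nbea and 31.7% for Oaf. The 3'UTRs without it ranged from 78 bases in Crip1 to 3642 bases in Ntn1, at which length 59.9% of genes held it. The shorter pentamer ATTTA was held by 66.2% of genes and by 4 of the 7, with 6 copies in Nbea, 4 in Lipo1, 3 in Oaf and 1 in Ntn1.

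Neighbouring genes were compared in the comparison where each gene differed most. Within 500 kb of the 7 genes lay 59 genes with a mean of at least 10 scaled counts. Of these, 2 differed at least 2-fold in the direction of the gene they flank, and 0 in the opposite direction, a share of 3.39% beside the 1.37% to 3.28% of all genes given above. Over all comparisons in which a member was past 2-fold, 5 of 123 neighbour values were past 2-fold in its direction and 2 in the opposite one. That is 5.69% of these values, above the shares of all genes given here. The same neighbours recur among them over comparisons that share libraries, so the values are not independent, and the difference was not tested. The 2 opposite values were Jag2 near Crip1, at -1.85 on the log2 scale between TTP-AA and TTP, and Dclk1 near Nbea, at 1.45 between TTP-AA and GFP. Trim29, 70.9 kb beyond Oaf, had 222, 165 and 485 scaled counts in GFP, TTP and TTP-AA and was 1.13 higher on the log2 scale in TTP-AA than in GFP. Arhgef12, on the other side of Oaf, was higher by 0.82. Myh10, 291 kb from Ntn1, had 369, 597 and 263 scaled counts and a TTP-AA to TTP difference of -1.18, with the same order of lines as Ntn1.

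Crip2, which ends 0.81 kb before Crip1, was 0.77 higher on the log2 scale in TTP-AA than in GFP. Of the 19 neighbours of Crip1, 16 had the sign of Crip1 in this comparison, with a median of 0.30 and a highest value of 0.85. The median over all genes was 0.00. None of the 19 was past 2-fold in this comparison, and whether the count exceeds that of other regions was not tested. Between TTP-AA and TTP, Crip2 was past 2-fold in the direction of Crip1, at 1.12, and Jag2 in the opposite one, at -1.85. On its other side the nearest was 4930427A07Rik. Of the 11 neighbours of Amz1, among them Brat1 and Gna12, TTP to GFP differences ran from -0.25 to 0.23. The 14 neighbours of F2rl3, with Sin3b and Large nearest, ran from -0.58 to 0.27 in the TTP-AA to TTP comparison. Stx8 and Pik3r5 were nearest to Ntn1. The 3 neighbours of Nbea, of which Dclk1 was the nearest, ran from -0.33 to 0.07 between TTP and GFP. Of the 5 neighbours of Lipo1, Rnls and Lipn were the nearest with a measurable level, and TTP-AA to GFP differences ran from -0.46 to 0.88. Between TTP-AA and TTP, Lipn was past 2-fold in the direction of Lipo1, at 1.19, and no neighbour was past it in the opposite one.

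**Figure D4:**
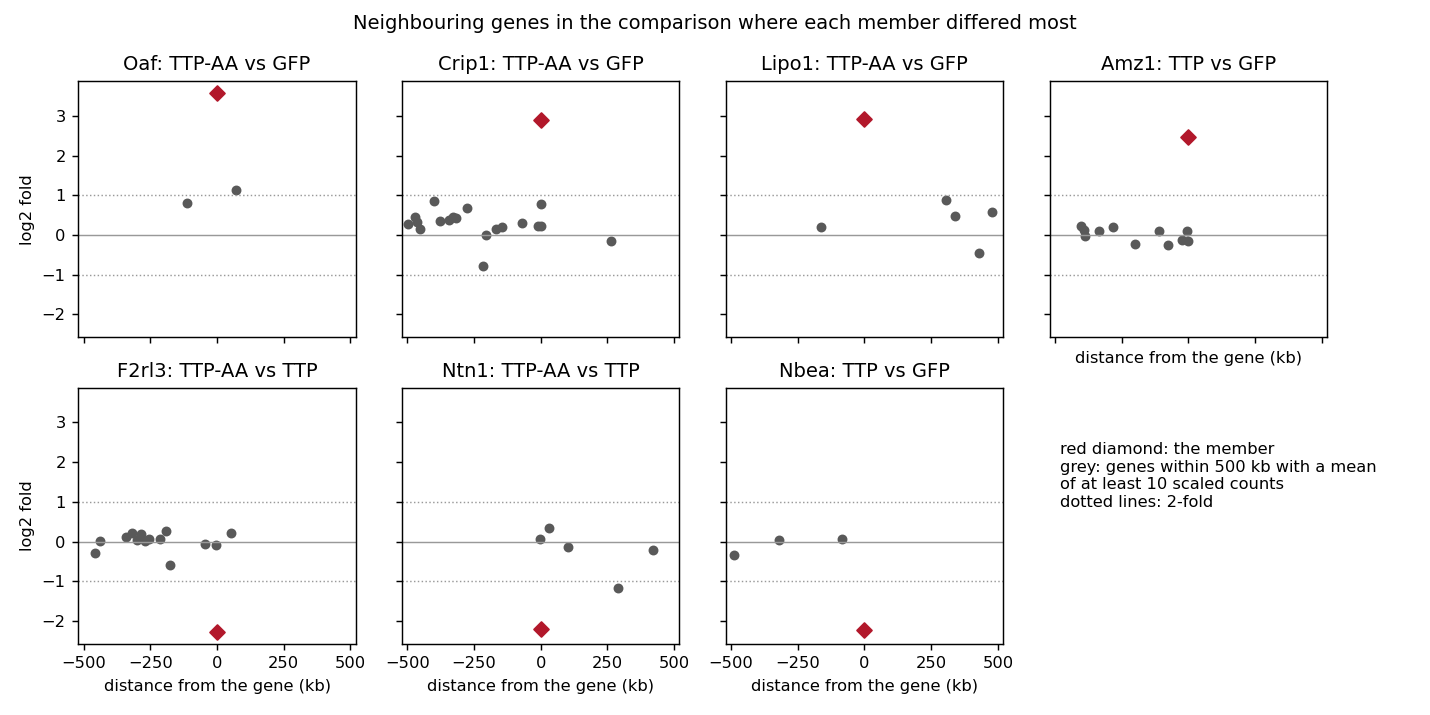
Log2 folds of each gene (red diamond) and its neighbours (grey) against distance from the gene in kb, in the comparison where the gene differed most. Dotted lines mark 2-fold. Grey points stay within 2-fold apart from Trim29 beside Oaf at 1.13 and Myh10 beside Ntn1 at -1.18.

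Other genes of the same families and pathways were taken from lists. Among 24 family genes other than the members with a mean of at least 10 scaled counts, 1 was at least 2-fold higher in TTP than in GFP, none differed 2-fold between TTP-AA and GFP, and 2 were higher and 1 lower in TTP-AA than in TTP. Over all genes the shares past 2-fold in either direction were 1.37%, 1.47% and 3.28% in these comparisons. With so few genes called, nothing is read from these counts. F2rl3 was the only protease-activated receptor above 10 scaled counts, since F2r, F2rl1 and F2rl2 had means of 1.33, 2.54 and 5.34. The G protein subunits through which such receptors signal, Gna12, Gna13, Gnaq and Gna11, differed between lines by at most 0.38 on the log2 scale.

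Ntn1 was likewise the only one of 6 netrins above 10 scaled counts. Of 9 genes for netrin receptors and binding partners, 5 reached it. Neo1, which encodes neogenin, had 4122, 5153 and 4261 scaled counts in GFP, TTP and TTP-AA. Mcam, which encodes a cell adhesion molecule that binds netrin-1, had 51.3, 115 and 29.3, the same order of lines as Ntn1. Its log2 difference was 1.17 between TTP and GFP and -1.98 between TTP-AA and TTP, beside 1.18 and -2.20 for Ntn1. Unc5b, Unc5c and Adora2b differed between lines by at most 0.49 on the log2 scale.

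All 8 other BEACH genes (Nbeal1, Nbeal2, Lrba, Lyst, Wdfy3, Wdfy4, Nsmaf and Wdr81) were above 10 scaled counts, and their differences from GFP ran from -0.24 to 0.19 in TTP and from -0.40 to 0.32 in TTP-AA. Nbea alone of this list differed 2-fold. Among LIM genes related to Crip1, Crip2 had 54.4, 42.9 and 93.0 scaled counts in GFP, TTP and TTP-AA, Csrp2 had 14.7, 15.3 and 23.1, and Csrp1 had 4013, 3836 and 4462. The TTP-AA line was the highest for each of them, by 0.15 to 0.77 over GFP on the log2 scale. Of 9 acid lipase names, 4 were in the table. Lipn, which encodes a lipase of the same cluster, had 217, 175 and 399 scaled counts, and Lipm had 15.6, 12.8 and 21.9. Lipa, the lysosomal acid lipase, had 20180, 21826 and 20081. Amz2, the other archaemetzincin, had 1514, 1473 and 1709.

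The genes whose profile over the 3 lines was nearest to each member were sought, with the 7 members left out, among 11115 other genes with a mean of at least 50 scaled counts, by Euclidean distance of centred log2 levels. Lancl3, which encodes a LanC-like protein, was the nearest of these to all of Oaf, Crip1 and Lipo1, with 48.1, 50.2 and 255 scaled counts in GFP, TTP and TTP-AA and distances of 0.83, 0.39 and 0.37. Flrt3, which encodes a leucine-rich transmembrane protein, came next for Oaf and Lipo1, and the metallothionein gene Mt2 for Crip1, with 43.9, 28.9 and 204 scaled counts. Nearest to Amz1 were Plxna4, a plexin that acts as a semaphorin co-receptor, with 133, 599 and 405 scaled counts, and Flt1, a receptor of vascular endothelial growth factor, with 145, 541 and 281.

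F2rl3 was closest to Tgif2, a homeobox repressor, with 81.2, 234 and 67.1 scaled counts, and to Hpse, which encodes heparanase, with 80.5, 218 and 60.0. Ntn1 was closest to A230050P20Rik at a distance of 0.11 and to the sarcomere gene Myom3 at 0.13. Nbea was closest to the androglobin gene Adgb, at a distance of 0.15, with 109, 22.3 and 31.1 scaled counts, and then to B3galnt1 at 0.74. With 3 fitted levels per gene these likenesses are descriptions of order and size only.

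A few genes that mark other cell types were also higher in the TTP-AA line, where Oaf, Crip1 and Lipo1 were highest. So were the macrophage markers Emr1, Itgam, Csf1r, Cd68, Lyz2, Spi1 and Cd14, whereas Fcgr1 and Mertk were highest in GFP. Of 5 endothelial markers, Vwf had 1140, 871 and 1751 scaled counts in GFP, TTP and TTP-AA and Kdr 16.7, 16.2 and 30.8. The defining marker Pecam1 was at 4.68, 3.95 and 4.30, Cdh5 at 8.86, 8.15 and 10.3 and Tek at 5.62, 5.81 and 6.73. The summed level of this list ran from 1138 to 1250 scaled counts over the GFP libraries, from 871 to 964 over the TTP libraries and from 1740 to 1919 over the TTP-AA libraries. Of 3 neutrophil markers in the table, S100a8 had 138, 139 and 235 scaled counts and Mpo and Elane were below 1 in each line. Whether endothelial cells or neutrophils were present, and their part in the levels of the 7 genes, was not tested.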

How the data were processed

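RNA was rRNA-depleted total RNA read as 50-base single ends. Per the labels, the authors trimmed reads, aligned them with TopHat2 2.0.12 to GRCm38 (versions from the submitters' processing notes), counted them per Ensembl gene with HTSeq and fitted DESeq2 1.6.3 with library date and condition. The study's methods name another TopHat version. The deposited library values are a signal per gene, the fitted mean counts of that model, and the deposited comparison tables add the authors' mean signal over 9 libraries. Those tables also hold the authors' fold changes, errors and p-values, which were not used. After 10 repeated gene identifiers were dropped, values were divided by library factors (median ratio to each gene's geometric mean, genes with a mean of at least 10). A group's level is the geometric mean of 3 libraries. Folds, with a pseudocount of 0, are ratios of such levels, and means ± SD are arithmetic. Called means at least 2-fold. No test was run, since the table holds no scatter and the genes were chosen from these contrasts. The members and lists were chosen with earlier results of these data known. The genes named beside the 7 members are the 2 nearest profiles per member, the family lists, and within 500 kb the nearest gene on each side and any past 2-fold; Lox, Arhgef12 and the named markers were added after values were seen. Annotation came from GENCODE M21 and promoters from RefSeq, both on GRCm38, and 6 of 7 members had a promoter entry. Like length means 0.8 to 1.25 times the 3'UTR. The steps were tested on simulated tables and run in Python 3.11.15 with numpy 2.4.6, pandas 2.3.3 and scipy 1.17.1. Alternatives were other scalings, pseudocounts, floors and filters, and each replicate number left out.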

Additional observations from a re-analysis of the deposited data

How the results depend on the processing

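No paired analysis was possible because the library values are fitted means without scatter and no result comes from a test. For the same reason, leaving out a replicate number does not remove the weight of its libraries from the fit, and the counts without one moved little: 176 to 181 genes past 2-fold between TTP and GFP, 192 to 193 between TTP-AA and GFP and 426 to 428 between TTP-AA and TTP. Of 15 member differences past 2-fold, none reversed under the other scalings or pseudocounts. Leaving out a replicate number or raising the highest line could not have reversed one, so these settings do not bear on that. Only the TTP-AA to GFP difference of Ntn1 fell below 2-fold, at -0.66 on the log2 scale without scaling and -0.93 with a pseudocount of 10. The number of members past the floor in a single line was 0 at floors of 5 and 10, 1 at 20 and 4 at 50. With a pseudocount of 10, 124 genes rather than 192 were past 2-fold between TTP-AA and GFP, since low genes are drawn together. Raising the highest line to the deposited mean, chosen after seeing the data, moved the TTP-AA to GFP difference of Crip1 from 2.90 to 3.94 on the log2 scale, of Lipo1 from 2.92 to 3.62 and of Oaf from 3.59 to 4.06. Low fitted counts, 31.7 over the 3 GFP libraries for Lipo1 and 48.0 over the TTP libraries for Nbea, limit the lower levels.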
